A study of Homo sapiens with 15 samples.

Results

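IL6, IL7, IL15, IL32 and IL17C are 5 interleukin genes that were followed across THP-1 cells stimulated with bacterial extracellular vesicles (BEVs), the small membrane vesicles that bacteria shed into their medium. They were found by their gene symbols in a table of 60286 genes, and all 5 were present. THP-1 is a human monocytic leukemia cell line of wild-type genotype according to the labels. Each of the 5 groups had 3 RNA-seq libraries, 15 in all. Non-stimulated cells received PBS and are labelled NC. BEVs of *E. coli* at 1 μg/mL were added in EUC, where they had been prepared by ultracentrifugation (UC), and in EPL, where they had been precipitated with epsilon-poly-L-lysine (PL). BEVs of *S. aureus* at 10 μg/mL were added in SUC and SPL, prepared by UC and by PL. Cells were incubated for 6 h according to the methods, whereas the time label reads Day 0. Bacterial species and BEV dose changed together, so they cannot be told apart. No source states that the 3 libraries of a group came from independent cultures, so p-values measure the spread between these libraries, which may be technical.

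IL-6 is an inflammatory cytokine that acts through IL6R and the shared signalling chain gp130 (IL6ST), which activate JAK kinases and STAT3. IL-7 and IL-15 use the common gamma chain (IL2RG) and signal through JAK3, JAK1 and STAT5. IL-7 supports lymphocyte survival through IL7R, and IL-15 is held on the surface of monocytes by IL15RA and presented to T cells and NK cells. IL-17C belongs to the IL-17 family and acts through IL17RE paired with IL17RA, mainly on epithelial cells. IL-32 has no sequence relatives among the interleukins and induces inflammatory cytokines in monocytic cells. In monocytes, bacterial products reach Toll-like receptors, and the transcription factor NF-kappa B then binds kappa B sites in cytokine promoters, that of IL6 included.

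IL6 (ENSG00000136244) lies on the forward strand of hg38 at chr7:22725884-22732002, and its canonical transcript has 5 exons. IL32 (ENSG00000008517) lies on the forward strand at chr16:3065297-3082192, with 7 exons in its canonical transcript. The RefSeq promoter table (GRCh38.p14) held a start site of IL6 and 2 start sites of IL32. IL7, IL15 and IL17C were not matched. Part of the 250 bases before the start site of IL6 and before the upstream start site of IL32 is shown in lower case. These genes were chosen because both rose from the control level in every stimulated group. The first 197 bases are shown for IL6 and the first 162 for IL32, without the bases nearest the start. Motifs below were searched in all 250 bases, and distances count from the start site, not from the end of the shown part. Capitals mark matches to the kappa B consensus.
IL6, chr7:22726950-22727146, forward strand: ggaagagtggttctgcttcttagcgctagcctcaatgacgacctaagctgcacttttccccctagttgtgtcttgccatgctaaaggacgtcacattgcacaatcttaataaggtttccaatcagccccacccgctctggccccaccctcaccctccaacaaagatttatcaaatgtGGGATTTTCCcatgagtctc
IL32, chr16:3065153-3065314, forward strand: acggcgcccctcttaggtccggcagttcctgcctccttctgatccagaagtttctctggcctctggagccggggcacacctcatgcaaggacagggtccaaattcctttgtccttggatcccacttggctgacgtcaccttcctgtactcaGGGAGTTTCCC

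The kappa B match of IL6 lay 73 to 64 bases before the start site. In IL32, a match on the forward strand at 99 to 90 bases before the start overlapped a match on the reverse strand at 98 to 89 bases. Some annotated IL32 transcripts start upstream of this site, and their first exon holds these matches. A kappa B match on either strand was present in 5.21% of the 35116 windows of 250 bases before RefSeq start sites. The IL6 window also held the C/EBP motif TTGCNNAA at 155 to 148 bases, a motif found in 9.05% of windows. The IL32 window held the CRE motif TGACGTCA at 121 to 114 bases, found in 1.65% of windows. Neither window held the AP-1 motif TGANTCA (6.57% of windows), the TATA motif TATAAA (10.7%) or the GAS motif TTCNNNGAA (6.57%). The window before the downstream IL32 start held none of the 6 motifs. These are matches of letters and no measurement of binding.

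IL-6 mRNA had also been measured by qRT-PCR, and the primers show which part of the transcript was read. Both are given here because the RNA-seq counts below cover the whole gene.
IL-6 forward primer, chr7:22731436-22731454: gacccaaccacaaatgcca
IL-6 reverse primer, chr7:22731484-22731503: gtcatgtcctgcagccactg
Both primers lay in exon 5, the last exon of the canonical transcript, and spanned 68 bases. They were found together in 5 of the 9 annotated IL6 transcripts.

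Libraries held 14399421 to 16637345 counted reads. A single read corresponded to between 0.0588 and 0.0689 CPM, the count scaled to a library of fixed normalized size. The cells expressed monocytic genes, such as SPI1 at 456 to 1388 CPM and CSF1R at 201 to 341 CPM. The summed level of 10 monocytic markers was 1146 to 1170 CPM in NC and 1603 to 2153 CPM in stimulated libraries, and the part of this shift in the results below was not tested. SPI1, with a mean of 947 CPM over the 15 libraries, held most of this sum, so it does not show whether the other markers rose. CD14 was at 3.20 to 9.90 CPM and MPO at 3.07 to 10.5 CPM. CD68, a further marker of these cells, stayed at or below 0.192 CPM, and 85.6% of its exon bases are shared with other annotated genes. CD3D, a defining T cell marker, was at 0 in all libraries, and CD3E and CD2 did not exceed 0.0624 CPM. The other T cell markers reached 0.986 CPM in TRAC and 0.312 CPM in CD8A, and the sum of the 5 T cell markers was 0.0640 to 0.417 CPM in NC and 0.256 to 1.18 CPM in stimulated libraries. The NK markers NCR1 and KLRD1 did not exceed 0.0683 CPM, whereas NKG7 was at 11.3 to 19.7 CPM and GNLY reached 1.16 CPM. The sum of the 4 NK markers was 11.4 to 14.3 CPM in NC and 14.8 to 20.5 CPM in stimulated libraries. The part of these lists in the results below was not tested. Among the stimulated libraries, EUC2, EUC3, EPL1 and SUC3 clustered apart from the other 8 and had the 4 lowest normalization factors of TMM, the scaling used here (0.915 to 0.970 against 0.983 to 1.01). IL6 and IL32 were higher in each of these 4 libraries than in the remaining libraries of the same group. The same held for IL7, IL15 and IL17C in 3 of the 4 libraries each. The share of all genes with this pattern was not measured.

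All 5 genes were higher in stimulated than in non-stimulated cells. In each gene, the lowest of the 12 stimulated libraries lay above the highest of the 3 NC libraries. The share of all genes that separate in this way was not measured. Levels between genes were compared per union exon length, which covers all annotated exons of a gene. It exceeds the canonical transcript unequally (4321 against 1127 bases in IL6, 3392 against 2016 in IL7), so the order of genes can depend on it. On this length IL32 was the most abundant in every group. It had 1.97 TPM (the level per exon length) in NC and group means of 10.8 to 16.1 TPM in stimulated cells. IL17C came next with 0.341 TPM in NC and 3.94 to 5.89 TPM after stimulation. The stimulated groups had 0.901 to 1.78 TPM of IL7, 0.443 to 0.892 TPM of IL6 and 0.242 to 0.464 TPM of IL15. IL6, IL7, IL15 and IL17C therefore rested on few reads, and only IL32 exceeded 42 reads in any library. These 4 genes passed the filter on low counts through stimulated libraries alone, since no NC library reached the required 0.632 CPM. IL32 reached it in all 15 libraries. In bulk RNA, more cells with a transcript and more transcript per cell cannot be told apart.

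**Figure D1:**
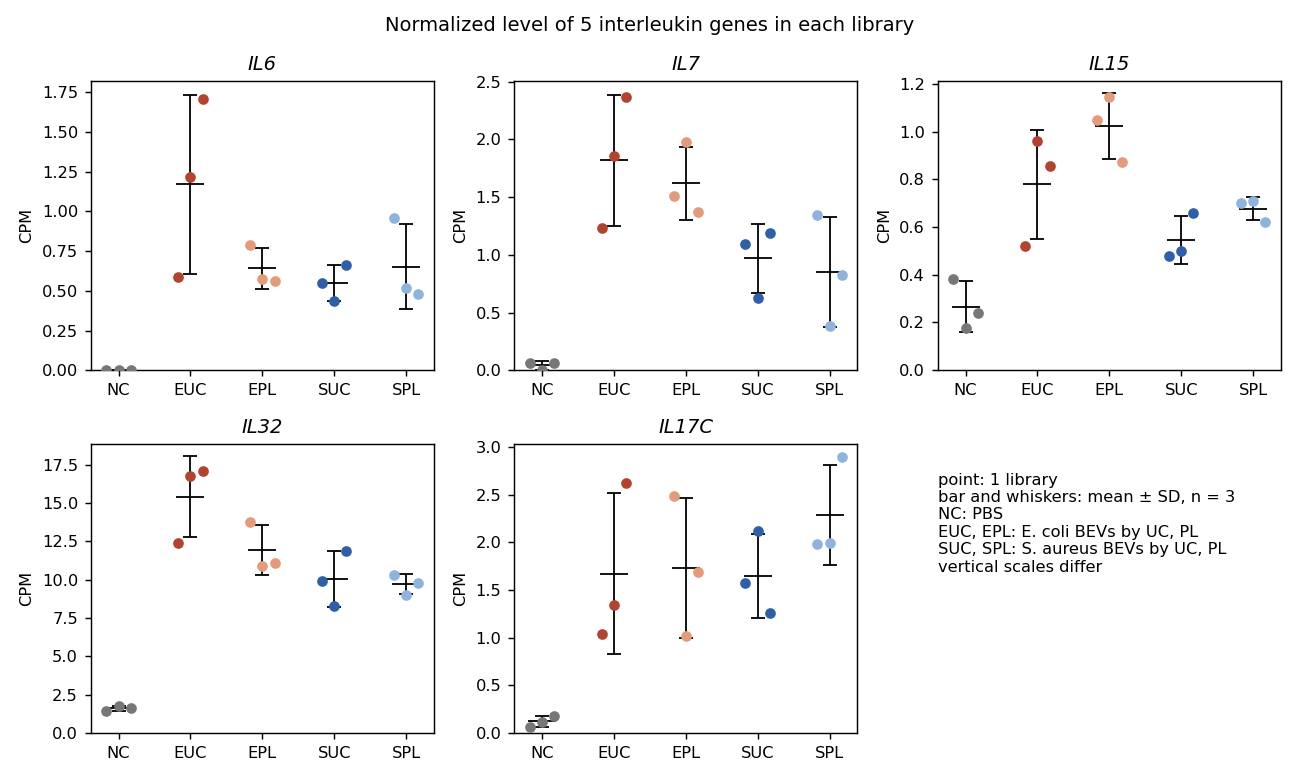
Level of each gene in each library, in CPM on a linear axis, with points for libraries in order of replicate number and bars for the group mean ± SD (n = 3). In each panel the 12 stimulated libraries lie above the 3 NC libraries, and the vertical scale differs between panels.

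IL6 had no read in the 3 NC libraries. The EUC libraries had 9, 19 and 26 reads, and the EPL libraries had 12, 9 and 9 reads. The SUC libraries had 8, 7 and 10 reads, and the SPL libraries had 15, 8 and 7 reads. The spread was widest in EUC, whose lowest library was at the level of the other groups. The mean CPM was 1.17 ± 0.563 for EUC and 0.641 ± 0.127 for EPL, and 0.548 ± 0.111 for SUC and 0.652 ± 0.266 for SPL (SD, n = 3 each). Against a limit of 3 counts over the NC group, IL6 was at least 19.3-fold higher in EUC and at least 10.5-fold in EPL, 8.99-fold in SUC and 10.8-fold in SPL. These bounds allow for counting error in NC only, and not for that of the stimulated counts or for the spread between libraries. IL6 was up-regulated in all 4 groups by the quasi-likelihood test of edgeR (Benjamini-Hochberg adjusted p over all genes tested = 1.46e-05, 0.000143, 0.00036 and 0.000164 for EUC, EPL, SUC and SPL). It entered this test through stimulated libraries alone. With only the libraries of the groups compared, the filter removed it in each comparison. Exons of IL6 share 428 bases with the antisense gene IL6-AS1, which had 1 read in the whole series. They share 46 bases with STEAP1B, which had no read in NC and 0 to 5 reads in stimulated libraries, 26 in all. The part of its reads in the counts of IL6 was not tested.

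IL32 was the gene with the deepest coverage and the narrowest error. The NC libraries had 22, 30 and 27 reads. The EUC libraries had 190, 261 and 260 reads and the EPL libraries 210, 171 and 177 reads. The SUC libraries had 145, 132 and 180 reads and the SPL libraries 161, 140 and 142 reads. The lowest stimulated library thus had 132 reads and the highest NC library 30. The mean CPM of 1.59 ± 0.179 in NC rose to 15.4 ± 2.63 for EUC and 11.9 ± 1.62 for EPL, and to 10.0 ± 1.82 for SUC and 9.70 ± 0.639 for SPL (SD, n = 3 each). The fold over NC was 9.59 (95% interval 7.24 to 12.7) for EUC and 7.42 (5.58 to 9.86) for EPL, and 6.24 (4.67 to 8.32) for SUC and 6.04 (4.53 to 8.07) for SPL. The adjusted p of edgeR was 3.3e-10, 2.03e-09, 1.19e-08 and 1.33e-08 in the same order. No read was counted on RNU1-125P, a small RNA gene inside IL32 that shares 129 exon bases with it.

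IL17C (ENSG00000124391) lies on the forward strand at chr16:88638572-88640468 and has 3 exons. It had 1, 2 and 3 reads in the NC libraries. The EUC libraries had 16, 21 and 40 reads, the EPL libraries 38, 16 and 27, the SUC libraries 23, 34 and 19 and the SPL libraries 31, 31 and 42. All 4 stimulated groups overlapped each other, and SPL had the highest mean. From 0.120 ± 0.0575 CPM in NC, the mean rose to 1.67 ± 0.843 for EUC and 1.73 ± 0.738 for EPL, and to 1.65 ± 0.440 for SUC and 2.29 ± 0.524 for SPL (SD, n = 3 each). The folds were 13.0 (95% interval 5.64 to 29.8) for EUC and 13.4 (5.87 to 30.7) for EPL, and 12.9 (5.58 to 29.6) for SUC and 17.7 (7.94 to 39.6) for SPL. The adjusted p of edgeR was 4.63e-05, 4.02e-05, 7.22e-05 and 1.19e-05, for a gene that passed the low-count filter through stimulated libraries alone. No other annotated gene overlaps its exons.

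IL7 (ENSG00000104432) lies on the reverse strand of chromosome 8 at positions 78675743 to 78805523, with 6 exons in its canonical transcript. The NC libraries had 1, 0 and 1 reads. The EUC libraries had 19, 29 and 36 reads and the EPL libraries 23, 31 and 22 reads. The SUC libraries had 16, 10 and 18 reads and the SPL libraries 21, 6 and 12 reads. All libraries of EUC lay above all of SUC, whereas 1 SPL library reached the *E. coli* range. Against 0.0412 ± 0.0357 CPM in NC, the mean was 1.82 ± 0.566 for EUC and 1.62 ± 0.316 for EPL, and 0.969 ± 0.302 for SUC and 0.852 ± 0.478 for SPL (SD, n = 3 each). With 2 reads in all of NC, the ratio was 44.9 (95% counting interval 12.1 to 377) for EUC and 40.0 (10.7 to 336) for EPL, and 23.7 (6.19 to 202) for SUC and 21.1 (5.46 to 180) for SPL. The adjusted p of edgeR was 5.79e-06, 1.03e-05, 0.000171 and 0.000275, for a gene that passed the low-count filter through stimulated libraries alone. With only the libraries of the groups compared, the filter removed IL7 in SUC and SPL.

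Exons at the start of IL7 overlap a long noncoding gene on the opposite strand, ENSG00000285744, and the genes share 231 exon bases. Since the strand setting of the counting is not given, reads of this gene and IL7 cannot be told apart there. ENSG00000285744 had no read in NC. It had 109 to 119 reads in EUC and 97 to 125 in EPL, and 45 to 48 in SUC and 49 to 71 in SPL. It was thus counted more often than IL7 in every stimulated library. Against a limit of 3 counts over NC it was at least 123-fold higher in EUC and at least 115-fold in EPL, 50.0-fold in SUC and 63.8-fold in SPL (edgeR adjusted p = 7.55e-11, 1.03e-10, 4.4e-09 and 1.31e-09). The part of its reads in the counts of IL7 was not tested. ZC2HC1A, which shares 322 exon bases with the other end of IL7, was no DEG in any group (adjusted p = 0.204 to 0.823).

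**Figure D2:**
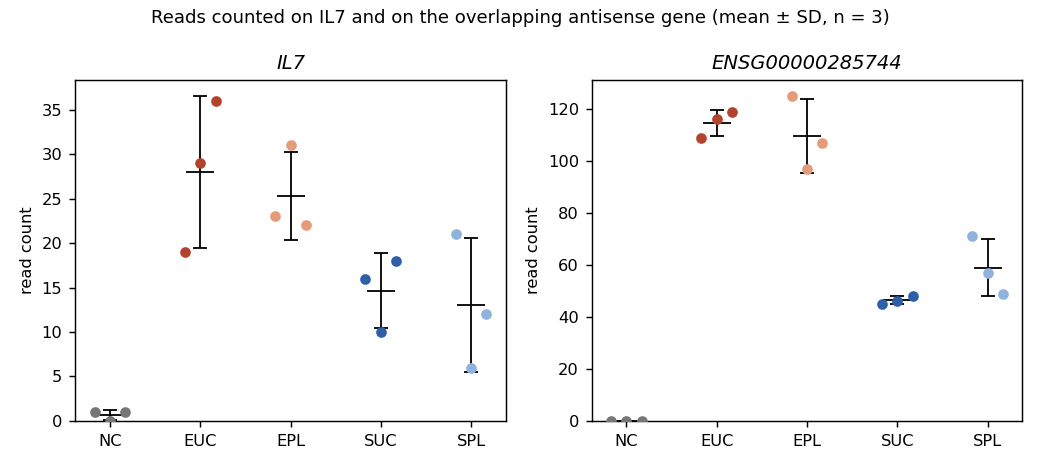
Read counts of IL7 (left) and of the overlapping antisense gene ENSG00000285744 (right) in each library, with the group mean ± SD (n = 3). Both were at 0 or 1 read in NC, and the antisense gene had 45 to 125 reads in stimulated libraries.

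IL15 (ENSG00000164136) lies on the forward strand at chr4:141636583-141733987, with 8 exons in its canonical transcript, and changed least. The NC libraries had 6, 3 and 4 reads. The EUC libraries had 8, 15 and 13 reads, the EPL libraries 16, 18 and 14, the SUC libraries 7, 8 and 10 and the SPL libraries 11, 11 and 9. The gap between the groups was narrow, with 6 reads in the highest NC library and 7 in the lowest stimulated library. The mean CPM was 0.266 ± 0.106 in NC, 0.779 ± 0.230 for EUC and 1.02 ± 0.138 for EPL, and 0.546 ± 0.0994 for SUC and 0.677 ± 0.0492 for SPL (SD, n = 3 each). IL15 was up-regulated 3.79-fold in EPL (95% interval 2.12 to 6.78, edgeR adjusted p = 0.000839). In EUC the fold was 2.89 (1.59 to 5.28, adjusted p = 0.00612). This call was lost without NC2, NC3, EUC2 or EUC3 (adjusted p = 0.0238 to 0.0358) and without the 4 libraries that clustered apart, where the log2 fold change fell from 1.53 to 0.96 (adjusted p = 0.354). It was also lost with DESeq2 (adjusted p = 0.0229) and with the replicate number as a block (adjusted p = 0.0111). In SUC and SPL the folds were 2.04 (1.08 to 3.83) and 2.52 (1.37 to 4.65), and neither passed the threshold (adjusted p = 0.0824 and 0.0199). IL15 too passed the low-count filter through stimulated libraries alone. No other annotated gene overlaps the exons of IL15.

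Differentially expressed genes (DEGs) were called at an adjusted p up to 0.01 and at least a 2-fold difference. By this rule 5 of the 5 genes were up-regulated in EUC and EPL, and 4 of 5 in SUC and SPL. With only the libraries of the groups compared, the counts were 3 for EUC, 4 for EPL and 2 for both SUC and SPL, since the filter then removed IL6 in each comparison, IL15 in all but EPL, and IL7 in SUC and SPL. Of all 17198 genes tested, 9.43% were up-regulated for EUC, 9.38% for EPL, 6.82% for SUC and 7.76% for SPL. The 4 comparisons share the NC libraries, in which IL6, IL7 and IL17C had 0 to 3 reads, so they are not independent of each other. Because 4 of the genes passed the low-count filter only through stimulated libraries, these counts do not measure how often interleukin genes respond.

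**Figure D3:**
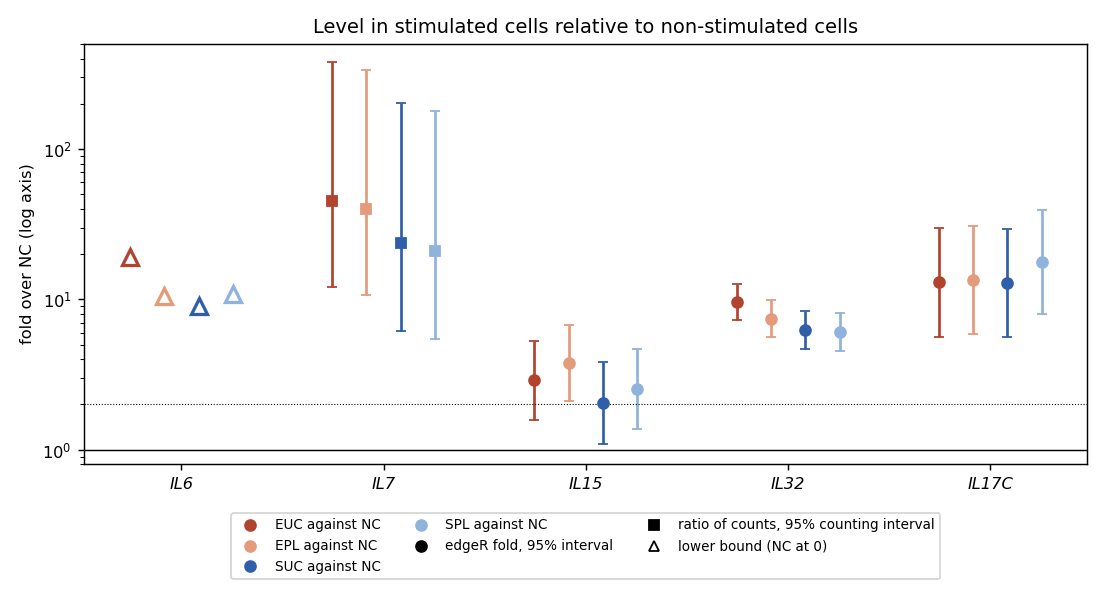
Fold over NC on a log axis for each gene and stimulated group. Open triangles are lower bounds for IL6 (8.99 to 19.3), squares are ratios of normalized counts with 95% counting intervals for IL7, and circles are edgeR folds with 95% intervals; the dotted line marks 2-fold, which the intervals of IL15 cross in EUC, SUC and SPL.

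Whether PL and UC preparations differed in effect was asked within each species. No gene of the 5 passed in EPL against EUC or in SPL against SUC with edgeR, and DESeq2 also called 0 in both. Over all genes tested, 0% were called in EPL against EUC and 0.00581% in SPL against SUC. At an unadjusted p under 0.05, IL32 alone among the 5 was lower in EPL than in EUC, and none differed between SPL and SUC. Of all genes tested, 3.51% were under this p in EPL against EUC and 5.81% in SPL against SUC. IL32 had a log2 fold change of -0.37 in EPL against EUC (95% interval -0.69 to -0.05) and of -0.04 in SPL against SUC (-0.38 to 0.29), so in these intervals a 2-fold difference was not included. For IL6 the interval was -1.79 to 0.06 in *E. coli* and -0.76 to 1.27 in *S. aureus*. The intervals of IL7 were -0.97 to 0.64 and -1.11 to 0.75, those of IL15 were -0.33 to 1.11 and -0.49 to 1.11, and those of IL17C were -0.75 to 0.85 and -0.31 to 1.24. At this depth a 2-fold difference by isolation method remained within an interval for IL6, IL7, IL15 and IL17C in at least 1 species. No difference between the methods that varied with species passed for any of the 5 genes (adjusted p = 1 each, none at an unadjusted p under 0.05 and 0 by DESeq2, with 0% of all genes called).

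Between *E. coli* BEVs at 1 μg/mL and *S. aureus* BEVs at 10 μg/mL, none of the 5 genes was a DEG, by edgeR or by DESeq2, whereas 0.686% of all genes tested were. IL32 was 1.37-fold higher with *E. coli* BEVs (95% interval 1.17 to 1.62, adjusted p = 0.0159), below the 2-fold threshold. Its 6 *E. coli* libraries ranged from 10.9 to 17.1 CPM and its 6 *S. aureus* libraries from 8.25 to 11.9 CPM, with an overlap. Without the 4 libraries that clustered apart, 3 of which are *E. coli* libraries, the log2 fold change of IL32 fell from 0.46 to 0.31 (adjusted p = 0.0669). IL7 was 1.88-fold higher with *E. coli* BEVs (1.23 to 2.88, adjusted p = 0.0752) and IL15 1.46-fold (1.01 to 2.12, adjusted p = 0.282), and both passed only an unadjusted p under 0.05. In this comparison 17% of all genes tested were under that unadjusted p. IL6 had a fold of 1.44 (0.894 to 2.32), which fell to a log2 fold change of 0.02 without those 4 libraries. IL17C had a fold of 0.874 (0.594 to 1.29) and was the only gene of the 5 with a higher mean in *S. aureus* groups. Without those libraries its log2 fold change moved from -0.19 to -0.80 (adjusted p = 0.0818).

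For vesicles isolated in the same way, EUC against SUC gave 0 of the 5 genes as DEGs by edgeR and by DESeq2, beside 0.768% of all genes. The libraries of the groups did not overlap in IL7 and IL32. How many of all genes tested were without overlap was not measured, here or in the next comparison. At an unadjusted p under 0.05 IL6, IL7 and IL32 were higher in EUC, and the adjusted p of IL32 was 0.026. Under that unadjusted p were 14.5% of all genes tested. EPL against SPL also gave 0 of the 5 by both tools, beside 0.122% of all genes, with no overlap of libraries in IL7, IL15 and IL32. IL7 alone of the 5 was at an unadjusted p under 0.05 there, as were 8.41% of all genes tested. By mean level, IL7 and IL32 were ordered EUC, EPL, SUC, SPL and NC. IL6 was ordered EUC, SPL, EPL, SUC and NC, IL15 was ordered EPL, EUC, SPL, SUC and NC, and IL17C was ordered SPL, EPL, EUC, SUC and NC. Neighbouring stimulated groups in these orders overlapped, except EPL and SUC in IL7, a pair that was not tested.

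**Figure D4:**
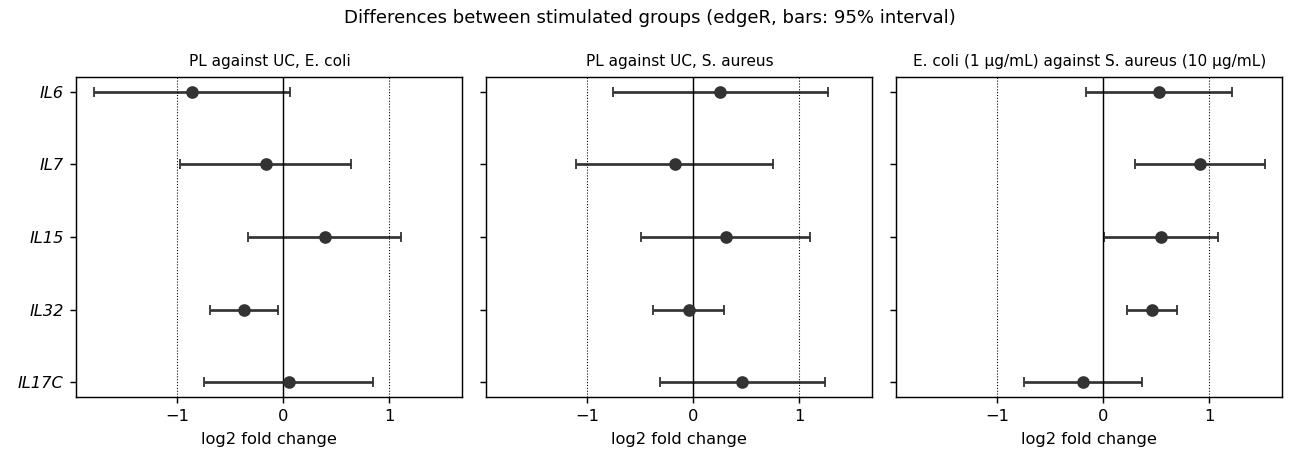
Log2 fold change of each gene between stimulated groups, with 95% intervals from edgeR: EPL minus EUC, SPL minus SUC, and both *E. coli* groups minus both *S. aureus* groups. Dotted lines mark a 2-fold difference; IL32 has the narrowest intervals, and in the right panel the intervals of IL7, IL15 and IL32 lie above 0 before adjustment.

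The receptors of these cytokines did not move together. IL7R rose from 1.08 ± 0.356 CPM in NC to 249 ± 5.15 for EUC and 224 ± 31.9 for EPL, and to 87.6 ± 14.9 for SUC and 124 ± 14.4 for SPL (SD, n = 3 each). It also differed between species, with a log2 fold change of 1.18 (SE 0.0947, edgeR adjusted p = 1.07e-06) in favour of *E. coli*. IL15RA, which presents IL-15, rose from 6.54 CPM to 38.6 for EUC and 33.8 for EPL, and to 20.1 for SUC and 24.3 for SPL. IL6ST, the signalling chain for IL-6, rose from 27.4 CPM to between 67.1 and 77.6 CPM. IL6R, the IL-6 binding chain, had 573 CPM in NC and 420 to 474 CPM in stimulated groups, with log2 fold changes of -0.45 to -0.27 that stayed below 2-fold. IL17RA had 350 CPM in NC and 253 to 301 CPM after stimulation, and IL17RE had 6.30 CPM in NC and 4.27 to 5.65 CPM after stimulation, and neither was a DEG. IL2RB, shared by the receptors of IL-2 and IL-15, had 2.62 to 3.75 CPM and was no DEG. The common gamma chain IL2RG had 61 reads in the whole series and was not tested, and 51.3% of its exon bases are shared with other annotated genes. JAK3 had 37 reads and was not tested either.

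Of 11 genes of the IL-6 receptor and its signalling, all tested, 4 were up-regulated in EUC, EPL and SPL and 3 in SUC, and none was down-regulated. Among all genes tested, 6.82% (SUC) to 9.43% (EUC) were up-regulated in the 4 comparisons. The median log2 fold change of the list was 0.26 to 0.56, and that of all genes tested was between -0.01 and 0.01 in the 4 comparisons. SOCS3, a feedback inhibitor of this pathway, rose from 7.23 CPM to 54.2 to 89.7 CPM. IL6ST passed in all 4 groups, and SOCS1, a further inhibitor, passed in EUC, EPL and SPL with log2 fold changes of 1.06 to 1.44. STAT3, the main mediator of IL-6, had log2 fold changes of 0.25 to 0.34 and was no DEG. Among 8 further IL-6 family cytokines, of which 5 were tested, LIF was the only DEG, with 1.09 CPM in NC and 2.78 to 5.58 CPM after stimulation.

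Of 12 genes of the IL-7 and IL-15 receptors and their signalling, 10 were tested. In EUC and EPL 5 were up-regulated and 2 down-regulated, and in SUC and SPL 4 were up-regulated and 2 down-regulated. The share of all genes tested that were up-regulated was 6.82% (SUC) to 9.43% (EUC). The list median was 0.58 to 1.35 on the log2 scale. Beside IL7R and IL15RA, STAT5A, a transcription factor downstream of both cytokines, rose from 14.6 CPM to 148 for EUC and 130 for EPL, and to 68.1 for SUC and 83.5 for SPL. CRLF2, which pairs with IL7R in the receptor of TSLP, passed in EUC, EPL and SPL and was also a DEG between species (log2 fold change 1.34, SE 0.148, edgeR adjusted p = 1.92e-05). IL2RA passed in EUC, EPL and SUC with 81 reads in all libraries together and none in NC. The 2 down-regulated genes were CISH and SOCS2, feedback inhibitors that STAT5 is known to induce. CISH fell from 15.2 CPM to 5.26 to 7.02 CPM and SOCS2 from 1.98 CPM to 0.169 to 0.445 CPM. Of all genes tested, 5.75% were down-regulated for EUC, 5.15% for EPL, 3.06% for SUC and 3.7% for SPL. IL2, IL4, IL9 and IL21, the other cytokines of the common gamma chain on the list, had no read in any library, and TSLP was tested and was no DEG.

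Of 7 IL-17 receptors and adaptors, 6 were tested, and TRAF3IP2, the adaptor that links IL-17 receptors to NF-kappa B, was the only DEG (1.48 in EUC, 1.46 in EPL and 1.07 in SPL on the log2 scale, and 0.81 in SUC, below 2-fold). The list medians were -0.31 to -0.07, and 6.82% (SUC) to 9.43% (EUC) of all genes tested were up-regulated. Of 5 other cytokines of the IL-17 family, IL17A and IL25 had no read, IL17B had 12 reads and IL17F had 4 reads. IL17D was tested and was no DEG, with 1.79 to 2.68 CPM. Only IL17C and IL17D of this family were thus tested, and IL17C was up-regulated. Of 3 binding partners of IL-32, ITGAV passed in EUC and EPL with log2 fold changes of 1.01 and 1.10, PRTN3 was no DEG and ITGB3 was not tested.

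Of 10 known regulators of IL6 and IL15, all tested, 6 were up-regulated in EUC and 5 in each of the other groups, with list medians of 1.04 to 1.3 on the log2 scale and no gene down-regulated. Beside these counts, 6.82% (SUC) to 9.43% (EUC) of all genes tested were up-regulated. ZC3H12A, which encodes the RNase Regnase-1 that degrades IL6 mRNA, rose from 14.3 CPM to 316 to 338 CPM. NFKBIZ, which encodes a nuclear co-activator of IL6, rose from 7.88 CPM to 153 to 161 CPM. ATF3, a repressor of inflammatory genes, rose from 3.87 CPM to 43.6 to 85.8 CPM, and NFKB1, a subunit of NF-kappa B, rose from 61.1 CPM to 327 to 429 CPM. IRF1 made up the fifth in every group and CEBPD the sixth in EUC. RELA, CEBPB, ZFP36 and ARID5A were no DEGs in any group.

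**Figure D5:**
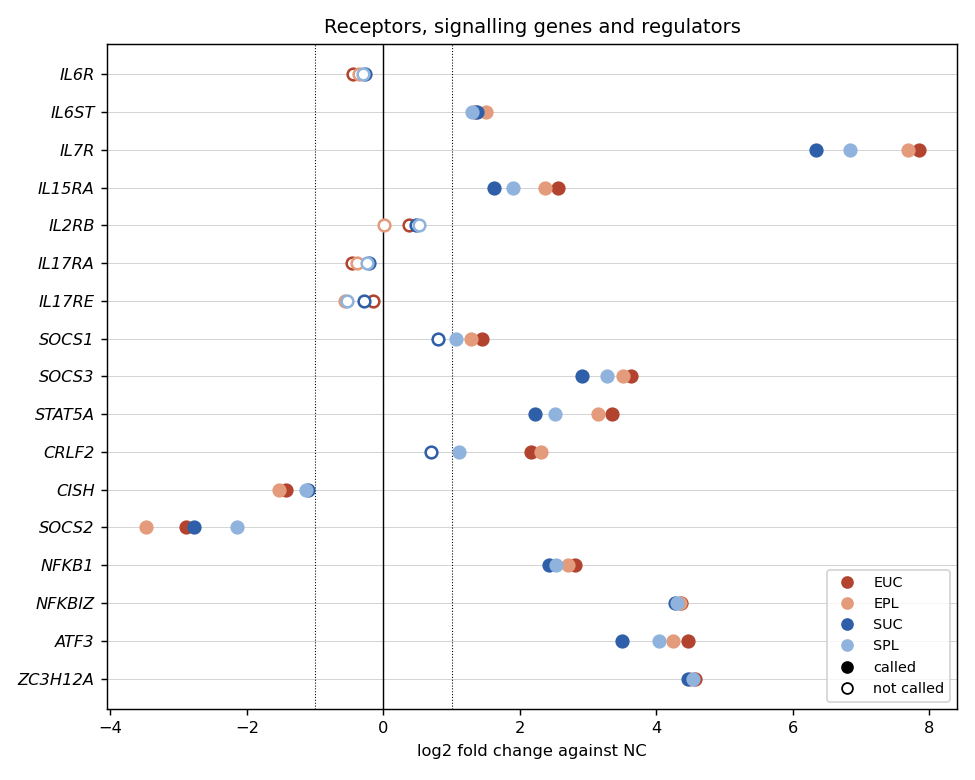
Log2 fold change against NC for receptors, signalling genes and regulators in the 4 stimulated groups. Filled points were DEGs and open points were not, and dotted lines mark 2-fold; IL7R shows the largest rise among these genes and CISH and SOCS2 lie on the negative side.

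The pattern over the 15 libraries was compared between genes as a description, by the Pearson correlation of log2 CPM for members with a mean of at least 1 CPM. All such correlations are dominated by the step from NC to stimulated cells and share the same libraries and depth. IL32 was most like SQSTM1 (r = 0.995), UXS1 (0.994) and NINJ1 (0.994). IL17C was most like NFKBID (0.968), CTSH (0.962) and NCF1B (0.962), the last a near copy of NCF1 whose reads may be split between the copies. IL7 was most like RAB10 (0.972), RSRC2 (0.969) and CGAS (0.968), and none of these 3 genes was kept with a smaller prior count of 0.5. Among the members themselves, IL6 and IL32 had r = 0.975 over the 15 libraries and 0.852 over the 12 stimulated libraries. IL17C had r = 0.909 with IL32 over the 15 libraries and -0.07 over the 12 stimulated libraries. Over the stimulated libraries the pairs of IL6, IL7 and IL32 had r = 0.701 to 0.852, those of IL15 with these 3 genes had r = 0.450 to 0.587, and those of IL17C with the other 4 genes had r = -0.24 to 0.16. These libraries include the 4 that clustered apart and differ in treatment, and the part of either in the correlations was not tested. In each of those 4 libraries IL6 and IL32 were above the rest of their groups, and IL7, IL15 and IL17C were so in 3 of the 4.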

How the data were processed

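RNA of THP-1 cells was sequenced with paired ends after Trizol extraction and NEB library construction. The submitters' processing notes name FastQC 0.11.5, HISAT2 2.1.0, StringTie 1.3.3b, featureCounts and DESeq 1.28.0 with the build hg38. Neither the strand setting nor the annotation release is given in the sources used here. The authors deposited whole-number read counts per gene without normalization, and samples were grouped by their titles.

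The deposited counts were analysed with edgeR 4.0.16 (R 4.3.3), after a filter by filterByExpr (about 10 reads scaled to the median library in at least 3 libraries) that left 17198 genes. After TMM scaling, a quasi-likelihood model was fitted to all 15 libraries without a replicate block, and p-values were adjusted by Benjamini-Hochberg. CPM used TMM-scaled library sizes, TPM used union exon lengths of GENCODE, and log2 CPM used a prior count of 2. A gene at 0 in NC was given a bound from 3 counts over that group. Bounds allow for counting error in NC only, and counting intervals cover counting error only. A permutation test of IL6 is not quoted, since with all NC libraries at 0 and all others above 0 its p could take no other value than the smallest. Alternatives included DESeq2 1.42.0, RLE factors, no scaling, no filter and left-out libraries. Scripts were tested on simulated data.

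The members and lists were chosen with earlier results of these data known. Of each list, up to 4 DEGs with the largest mean change and at least 1 CPM were named, and 8 receptor genes whatever they did. IRF1, CEBPD, IL2RA, CISH, SOCS2, the genes at 0 and other non-DEGs were named after their values were seen. Values of 1 listed gene are not reported here.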

Additional observations from a re-analysis of the deposited data

Results flagged for a closer look

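IL32 differed between the species of BEVs by an edgeR test of the difference itself, with a log2 fold change of 0.46 in favour of *E. coli* (SE 0.11, adjusted p = 0.0159) that stayed under the 2-fold threshold. The adjusted p ranged from 0.00433 to 0.0599 when single libraries were left out, and it exceeded 0.05 without EUC2, SUC2 or SPL2. The 4 libraries that clustered apart hold the highest IL32 levels of their groups. Without them, a choice made after seeing the data, the log2 fold change was 0.31. The part in the difference of what set them apart was not tested.

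IL7R was higher with *E. coli* BEVs by a log2 fold change of 1.18, and CRLF2 by 1.34, both DEGs between species. ENSG00000285744, the gene antisense to IL7, was measured outside the 5 genes. It had no read in NC and at least 45 reads in every stimulated library, and its log2 fold change between species was 1.08 (edgeR adjusted p = 4.93e-05). Species and dose cannot be told apart in these differences.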

How the results depend on the processing

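Of 632 values of single genes under alternatives, against NC and between species, 621 kept their direction and their side of the threshold, and none reversed. They include 16 values of the permutation test of IL6 that is not quoted. They also include alternatives that change only a threshold and leave the value itself as it was. Others left out a library of a group not compared and could hardly move a value. For IL32 in EUC against NC these gave log2 fold changes of 3.261 to 3.264, beside 3.262 with all libraries. A gene that the filter removed in an alternative gave no value there, so those lost calls of IL6, IL7 and IL15 are not among the 632. The other 11 all concern IL15. In EUC against NC its log2 fold change was 1.37 without scaling, 1.54 without the filter, 1.53 in a test against a 1.5-fold change, 1.57 with DESeq2 and 0.96 without the 4 libraries that clustered apart, a choice made after seeing the data, and it was no DEG under any of these. Single libraries left out gave 1.31 to 1.87. With the replicate number as a block it was 1.53 (adjusted p = 0.0111), and the block changed no other call of the 5 genes. The numbers did not pair the libraries (mean r = 0.00946 over 30 same-number pairs), although 9 of 15 libraries correlated best with their own number, a hint from the data and not from the design. In SPL against NC, IL15 passed at an adjusted p of 0.05, with 1.33. When only the libraries of the groups compared were used, the genes called against NC fell to 3 in EUC, 2 in SUC and 2 in SPL, because the filter then removed IL6 and IL15 in EUC and also IL7 in SUC and SPL. EPL kept 4 of 5, without IL6. With the longest transcript as length, IL32 was higher (18.7 to 28.0 TPM in stimulated groups). Depth limits IL6, IL7, IL15 and IL17C most, at 6 to 42 reads in stimulated libraries.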
